A study of Homo sapiens with 4 samples.

Results

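Aminoacyl-tRNA synthetases join each amino acid to its tRNA, the step that supplies the ribosome with charged tRNAs. Human cells keep one set of these enzymes in the cytosol and another, encoded by separate nuclear genes, in the mitochondria, where it serves the translation of mitochondrial mRNAs. The enzymes fall into class I and class II, which have unrelated catalytic folds. Several cytosolic synthetases are held with scaffold proteins in the multi-tRNA synthetase complex, and many cytosolic synthetase genes are known targets of ATF4, the transcription factor of the amino acid response.

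The gene list held 38 synthetase and scaffold genes, chosen by name, of the 51103 genes in each table. All 38 names were found once in every table, under their older symbols without the final 1 (AARS for AARS1). They comprised 20 genes of the cytosolic set, 9 of class I, 10 of class II and EPRS, whose product joins a glutamate enzyme of class I to a proline enzyme of class II. The mitochondrial set had 16 genes, all with names ending in 2. AIMP2 also ends in 2 but was placed with AIMP1 as 1 of 2 scaffold genes of the cytosolic complex. FARSA and FARSB encode the subunits of one cytosolic phenylalanine enzyme. GARS and KARS each encode both the cytosolic and the mitochondrial enzyme, and were kept in the cytosolic set.

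The cells were AGS, an established human gastric adenocarcinoma line, and polyadenylated RNA was sequenced. The FGF2 group received recombinant human FGF2 at 20 ng/mL for 24 h. The other group is labelled NC, a name that the labels do not spell out, and the treatment text attached to it also describes FGF2, which leaves the treatment of NC cells unstated. FGF2 is a growth factor whose receptors activate the ERK cascade, and the series compared the 2 groups with an eye to the making of ribosomes. Each group had 2 libraries, of 13790335 and 27598608 counts (FGF2 libraries 1 and 2) and 14073340 and 27325697 counts (NC libraries 1 and 2). In each group library 1 exceeded library 2 at only 2 genes, where 1192 (FGF2) and 1214 (NC) would be expected of separate libraries. The chi-square per gene between them, 0.771 and 0.764 among moderately counted genes, lay below sampling noise. Library 1 thus appears to be part of library 2. Each group was counted as 1 sample, and no p-value is given. In such bulk RNA, fewer cells that express a gene and less of its RNA per cell cannot be told apart. Group values are those of library 2. As a check within a group, its reads were parted into 2 disjoint sets, library 1 and the other reads of library 2. Whether both sets stem from one culture, or library 2 pools 2 preparations, is unknown.

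FGF and ERK response genes, chosen with earlier results of these data known, were set beside the labels. Of these, 6 of 6 were at least 1.5-fold higher with FGF2 in both read sets, against 3.14% of 11000 genes with enough counts. They ranged from SPRED1 (log2 fold change 1.05) to DUSP6 (3.51). Among epithelial markers, the keratin genes KRT8 and KRT18 stood at 190.6 and 199.1 FPKM (counts scaled for exon length and library total) with FGF2, and at 270.3 and 193.0 FPKM in NC. KRT19 went the other way from KRT8, at 47.6 FPKM with FGF2 and 27.3 FPKM in NC (log2 fold change 0.89). The adhesion marker EPCAM stood at only 0.518 FPKM with FGF2 and 1.19 FPKM in NC, and CLDN4 at 0.462 and 0.654 FPKM. The 9 fibroblast markers summed to 83.8 to 84.3 FPKM in the FGF2 libraries and 141.4 to 144.6 FPKM in the NC libraries. Most of it was COL1A1 (59.4 and 103.8 FPKM, log2 fold change -0.72). PDGFRB was also lower with FGF2, at 1238 counts against 4095 in NC (log2 fold change -1.65). THY1 stood at 0.02, with overlapping read sets. COL3A1 had 6 counts with FGF2 and 137 in NC, DCN 0 and 8, LUM 0 and 12, and PDGFRA 3 and 0. COL1A2 and FAP were at 0. The 3 endothelial markers summed to 0.288 to 0.361 FPKM. The 5 blood and immune markers summed to 0.385 to 1.07 FPKM, with 3 of them at 0. One of the 3 is CD68, whose 0 is uncertain because 81.7% of its exon sequence also belongs to a same-strand gene. The part of these markers in the synthetase results was not tested.

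RefSeq promoter windows of 300 bases (GRCh38.p14, 250 bases before and 50 after a start) were matched to 32 of the 38 genes by symbol. LARS, VARS, YARS, DARS, AARS2 and VARS2 had no window. The amino acid response element, to which ATF4 binds with a C/EBP partner, was searched on both strands as TGATGNAA, where N is any base, and as TGATGCAA, which is one form of it. TGATGNAA was in a window of 7 of 16 cytosolic genes (43.8%), 1 of 14 mitochondrial genes and 0 of 2 scaffold genes, against 4.46% of all 27305 genes with a window. TGATGCAA was in 6 of the 16 cytosolic genes (37.5%), against 1.08% of all genes. The matches are shown because the same letters recur across the cytosolic list, each on the strand that carries the motif, which is in capitals.
CARS, chr11:3057407-3057436, plus strand: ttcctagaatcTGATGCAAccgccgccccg
IARS, chr9:92293692-92293721, plus strand: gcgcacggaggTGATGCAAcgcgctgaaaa
MARS, chr12:57488053-57488082, minus strand: gaatccctcgcTGATGCAAccggaaccggc
AARS, chr16:70289675-70289704, plus strand: tctaacttggcTGATGCAActgcgagaaaa
GARS, chr7:30594834-30594863, minus strand: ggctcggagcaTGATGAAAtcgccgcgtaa
NARS, chr18:57621804-57621833, minus strand: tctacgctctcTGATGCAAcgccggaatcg
TARS, chr5:33440956-33440985, minus strand: gctggaccagcTGATGCAAtcgaaaggcgc
YARS2, chr12:32756076-32756105, minus strand: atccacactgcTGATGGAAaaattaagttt
A match describes letters in a window and shows neither binding nor a cause.

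Of the cytosolic synthetase genes 10 of 20 were called higher with FGF2, by modest amounts, and of the mitochondrial ones 2 of 15. The calling rule required every FGF2 read set to differ from every NC read set in one direction, by 1.2-fold or more, after TMM scaling, which adjusts for library composition. Of the 38 genes, 37 passed the minimum of 50 counts per read set on average. Among these, 12 were called higher (32.4%) and 0 lower, against 12.7% higher and 13.4% lower among all 11000 genes past the minimum. The share in the mitochondrial set, 13.3%, was near that of all genes, and 0 of 2 scaffold genes were called. Among the 3477 genes whose mean counts lay in the range spanned by the cytosolic set, 16.1% were called higher and 8.17% lower.

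The median log2 fold change was 0.31 for the cytosolic set, a 1.24-fold difference, and 0.15 for the mitochondrial set, beside 0.03 for all genes past the minimum. The cytosolic median was 0.30 in the library 1 reads and 0.32 in the rest, and the mitochondrial median 0.08 and 0.14. The medians of the sets thus kept their order in both read sets, with a difference of 0.17 in the group values. Genes are not replicates, and this difference has no test. In all, 27 of the 37 genes had FGF2 read sets entirely above the NC ones, against 37.8% of all genes, and 3 entirely below, against 31.2%. At a 1.5-fold bound 1 gene, MARS2, was called higher, or 1 of 37 against 3.14% of all genes, and 0 were called lower, against 5.17%. The calls lie close to the bound. With scaling by total counts alone, 4 members were called higher (FARSB, RARS, MARS2 and YARS2), and calls over all genes were 932 higher and 1933 lower in place of 1402 and 1471 (8.47% and 17.6%).

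**Figure D1:**
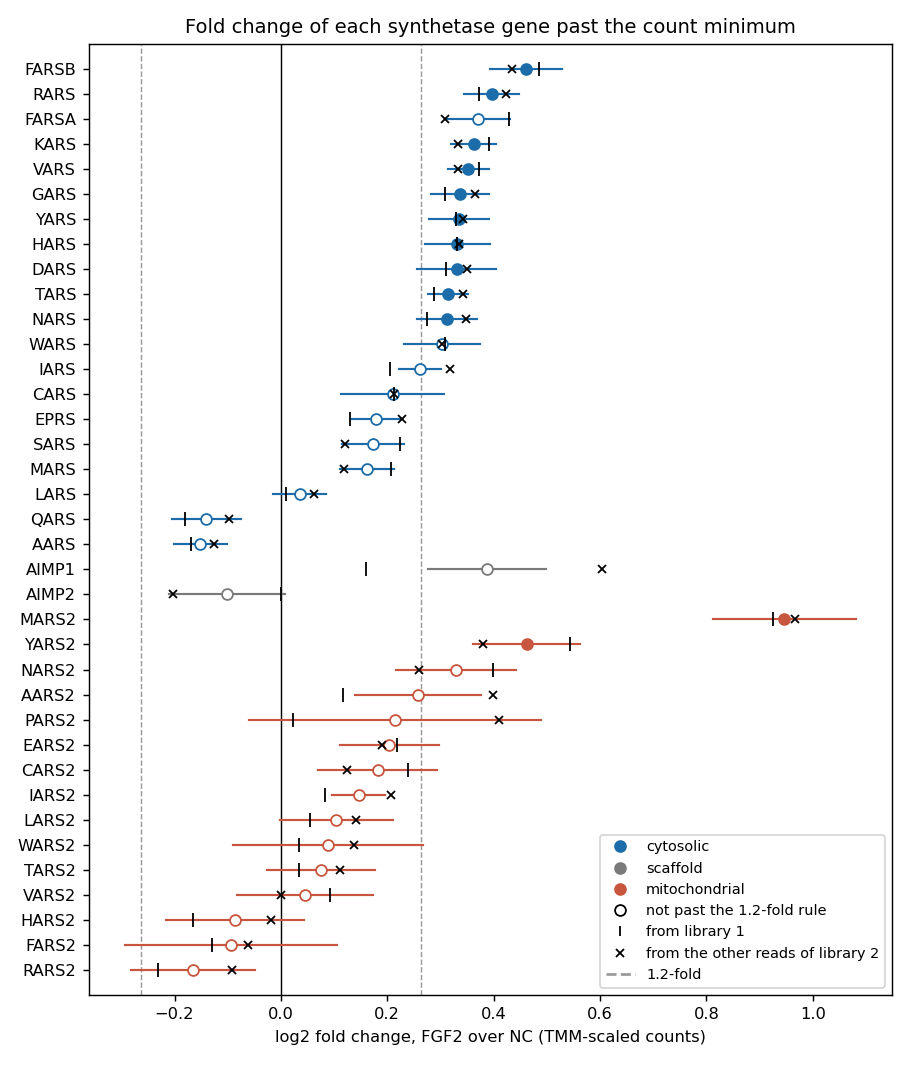
Log2 fold change (FGF2 over NC, TMM-scaled counts of library 2) of the 37 genes past the count minimum, with exact 95% counting intervals as lines and the values from library 1 (bars) and from the other reads of library 2 (crosses). Filled circles are the 12 genes past the 1.2-fold rule (dashed lines). MARS2, at 0.95, lies apart from the rest, and the 10 filled cytosolic genes lie between 0.31 and 0.46.

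**Figure D2:**
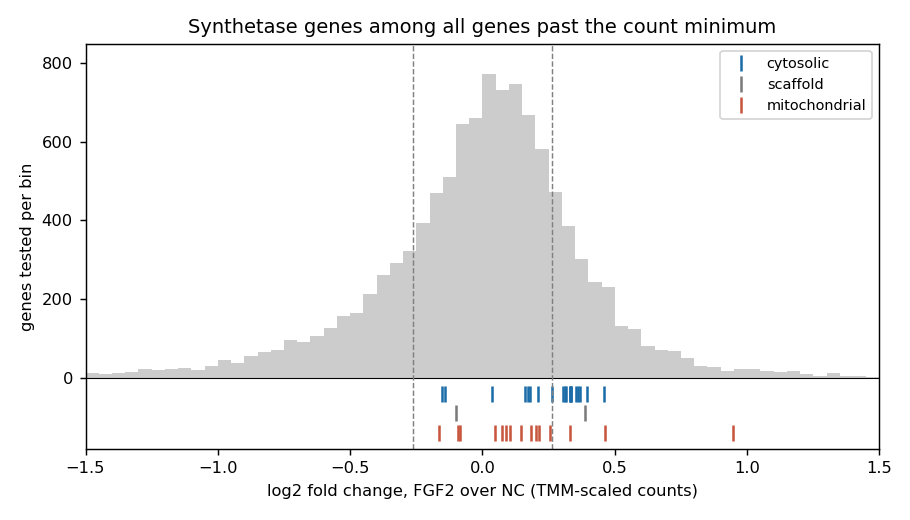
Number of genes per bin of log2 fold change (FGF2 over NC) for the 11000 genes past the count minimum, of which 156 lie outside the axis, with each synthetase gene as a tick below. The cytosolic ticks are mostly to the right of 0, between -0.15 and 0.46, while the mitochondrial ticks are spread from -0.17 to 0.95.

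Among the cytosolic class II enzymes, 7 of 10 genes were higher and 0 lower, against 12.7% and 13.4% of all genes. Their median was 0.33. FARSB, the beta subunit of the phenylalanine enzyme (ENSG00000116120, chromosome 2, 222570536 to 222656337), stood at 32.9 and 35.2 FPKM in the NC read sets and at 43.1 and 45.1 FPKM in the FGF2 read sets. Its log2 fold change was 0.46 (95% counting interval 0.39 to 0.53), the highest of the cytosolic set. The lowest FGF2 read set was 1.31-fold above the highest NC one. FARSA, its partner subunit, had 60.5 and 56.0 FPKM in NC and 76.3 and 65.7 FPKM with FGF2. The read sets did not overlap, but the smallest gap was 1.14-fold, so FARSA missed the rule at a log2 fold change of 0.37 (0.31 to 0.43).

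KARS, which charges lysine tRNAs in both compartments, was the most abundant synthetase mRNA per length. It stood at 74.5 and 75.5 FPKM in NC and at 91.5 and 90.1 FPKM with FGF2, a log2 fold change of 0.36 (0.32 to 0.40). GARS, the glycine enzyme of both compartments, had 43.9 and 43.4 FPKM in NC and 50.9 and 52.9 FPKM with FGF2 (0.34, 0.28 to 0.39). Both genes with a double destination were thus past the rule, with read sets of each group close together. The threonine enzyme gene TARS went from 70.3 and 68.3 FPKM in NC to 80.4 and 82.0 FPKM with FGF2 (0.31, 0.28 to 0.35). DARS, for aspartate, had 24.1 and 24.5 FPKM in NC and 28.0 and 29.6 FPKM with FGF2 (0.33, 0.26 to 0.41). NARS, for asparagine, had 42.0 and 42.2 FPKM in NC and 47.6 and 50.9 FPKM with FGF2 (0.31, 0.26 to 0.37), and its smallest gap, 1.21-fold, was among the closest to the bound.

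HARS, the histidine enzyme and the other class II gene past the rule, is described with its neighbour HARS2. SARS and AARS completed the class. SARS, the serine enzyme, stood at 0.17 (0.11 to 0.23), with a smallest gap of 1.07-fold. AARS, the alanine enzyme, was the lowest of the cytosolic set at 60.9 and 56.0 FPKM in NC and 50.7 and 48.6 FPKM with FGF2, a log2 fold change of -0.15 (-0.20 to -0.10). Its FGF2 read sets were below the NC ones, by as little as 1.03-fold.

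Among the 9 class I genes, 3 were higher and 0 lower, against 12.7% and 13.4% of all genes. Their median was 0.26. RARS, the arginine enzyme (ENSG00000113643, chromosome 5, 168486445 to 168519299), stood at 57.8 and 55.6 FPKM in NC and at 70.1 and 70.6 FPKM with FGF2, a log2 fold change of 0.40 (0.34 to 0.45). VARS, the valine enzyme, had 58.0 and 59.4 FPKM in NC and 70.3 and 70.8 FPKM with FGF2 (0.35, 0.31 to 0.39). YARS, the tyrosine enzyme, had 20.6 and 20.4 FPKM in NC and 24.2 and 24.5 FPKM with FGF2 (0.33, 0.28 to 0.39). In each of the 3 genes both FGF2 read sets were at least 1.25-fold above both NC read sets.

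WARS, the tryptophan enzyme and a known interferon-induced gene, stood at 17.2 and 16.0 FPKM in NC and at 20.0 and 18.7 FPKM with FGF2 (0.30, 0.23 to 0.38), and missed the rule with a smallest gap of 1.14-fold. WARS shares 10.6% of its exon sequence with genes on the opposite strand, whose reads cannot be told apart in these unstranded libraries. IARS, for isoleucine, stood at 0.26 (0.22 to 0.30), CARS, for cysteine, at 0.21 (0.11 to 0.31) and MARS, for methionine, at 0.16 (0.11 to 0.21). CARS was the least abundant of the cytosolic set, at 6.11 FPKM in NC. LARS, for leucine, stood at 0.04 (-0.02 to 0.09), and was below 0 with scaling by total counts alone. QARS, for glutamine, had 33.1 and 32.0 FPKM in NC and 27.3 and 28.3 FPKM with FGF2 (-0.14, -0.20 to -0.08). EPRS, the enzyme of both classes, stood at 0.18 (0.13 to 0.23).

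Genes of the multi-tRNA synthetase complex and the other cytosolic synthetase genes overlapped in their values. Of the 8 synthetases of the complex (EPRS, MARS, QARS, RARS, KARS, DARS, IARS and LARS), 3 were higher, with a median of 0.22 and a range of -0.14 to 0.40. Of the 12 other cytosolic genes 7 were higher, with a median of 0.32 and a range of -0.15 to 0.46. In both subsets 0 were lower, and over all genes 12.7% were called higher and 13.4% lower. The scaffold gene AIMP1 stood at 13.9 and 12.7 FPKM in NC and at 14.5 and 18.3 FPKM with FGF2. Its log2 fold change was 0.16 in the library 1 reads and 0.60 in the rest, the widest spread between FGF2 read sets of the 37 members past the minimum. AIMP2 stood at -0.10 (-0.21 to 0.01), with overlapping read sets. AIMP1 and AIMP2 share 11.6% and 28.9% of their exon sequence with genes on the opposite strand.

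Of the 15 mitochondrial genes past the minimum, 2 were higher and 0 lower, against 12.7% and 13.4% of all genes. MARS2, the mitochondrial methionine enzyme, had the highest fold change of all members. It is a gene of 1 exon of 3019 bases that shares no exon sequence with another gene (ENSG00000247626, chromosome 2, 197705369 to 197708387, plus strand). Its level was 8.52 and 8.42 FPKM in the NC read sets and 15.2 and 15.6 FPKM in the FGF2 read sets. With 1281 counts against 699, the log2 fold change was 0.95 (0.81 to 1.08), or 1.93-fold, at the 98.2th percentile of the 11000 genes. The lowest FGF2 read set was 1.90-fold above the highest NC one. The read sets of a group lay close together for this gene. They were not counted as separate samples, so the spread between samples stays unmeasured.

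The 150 bases before the RefSeq start of MARS2 are shown because this gene stands apart. Capitals mark 1 E-box (CACGTG, the site of MYC and related factors) and 2 matches to the site of NRF1, a factor of many nuclear genes for mitochondrial proteins, searched on both strands as GCGC, any base, then TGCGC.
MARS2, chr2:197705219-197705368, plus strand: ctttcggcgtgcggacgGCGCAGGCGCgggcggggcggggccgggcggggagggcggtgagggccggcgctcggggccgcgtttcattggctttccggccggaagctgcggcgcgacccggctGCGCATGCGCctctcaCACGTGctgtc
The E-box was in a window of 3 of 14 mitochondrial genes (MARS2, CARS2 and EARS2) 1 of 16 cytosolic genes (IARS) and 1 of 2 scaffold genes (AIMP2), against 8.77% of all genes. The NRF1 letters were in 3 of 14 (MARS2, IARS2 and PARS2) and in 3 of 16 (FARSB, SARS and TARS), as well as AIMP2, against 6.98%. Of these, CARS2, EARS2, IARS2, PARS2, IARS, SARS and AIMP2 were not past the rule.

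YARS2, the mitochondrial tyrosine enzyme (ENSG00000139131, chromosome 12, 32727490 to 32755902), was the other gene past the rule. It had 23.2 and 25.0 FPKM in NC and 31.7 and 30.8 FPKM with FGF2, a log2 fold change of 0.46 (0.36 to 0.56). It was 0.54 in the library 1 reads and 0.38 in the rest. NARS2, for asparagine, came next at 13.7 and 13.7 FPKM in NC and 16.9 and 15.6 FPKM with FGF2 (0.33, 0.22 to 0.44). Its smallest gap of 1.196-fold lay just under the bound.

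The remaining mitochondrial genes fell on both sides of 0. AARS2 (0.26), PARS2 (0.21), EARS2 (0.20), CARS2 (0.18) and IARS2 (0.15) had FGF2 read sets above the NC ones without passing the rule. AARS2 and PARS2 differed between read sets, at 0.12 and 0.02 from library 1 and 0.40 and 0.41 from the other reads. LARS2, WARS2, TARS2, VARS2, HARS2 and FARS2 had overlapping read sets and log2 fold changes from -0.09 to 0.10, and TARS2 and VARS2 changed sign with scaling by total counts alone. RARS2, for arginine, was the lowest at -0.17 (-0.28 to -0.05). Its FGF2 read sets, 15.5 and 15.7 FPKM, lay below its NC read sets, 19.4 and 17.7 FPKM.

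SARS2, the mitochondrial serine enzyme, did not pass the minimum, with 4 and 6 counts in the FGF2 read sets and 7 and 6 in the NC ones. Of its exon sequence 46.2% is shared with a same-strand gene listed at 0 counts in both libraries 2, and 10.8% is shared with MRPS12 on the opposite strand, which had 1938 and 1654 counts. How reads over shared sequence were counted was not tested, and the SARS2 level is uncertain.

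Levels per length separated the sets more than the treatment did. The median in NC was 42.9 FPKM for the cytosolic set and 8.91 FPKM for the mitochondrial set. KARS was highest, followed by TARS at 69.4 FPKM in NC. VARS, AARS and FARSA came next at 58.7, 58.5 and 58.3 FPKM and did not differ beyond the spread of their NC read sets. The isoleucine gene IARS2 was the most abundant of the mitochondrial set at 55.7 FPKM, above IARS at 48.3 FPKM. YARS2 also exceeded its cytosolic counterpart, at 24.1 against 20.5 FPKM. PARS2 at 3.32 and FARS2 at 3.35 FPKM were the lowest mitochondrial genes apart from SARS2.

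**Figure D3:**
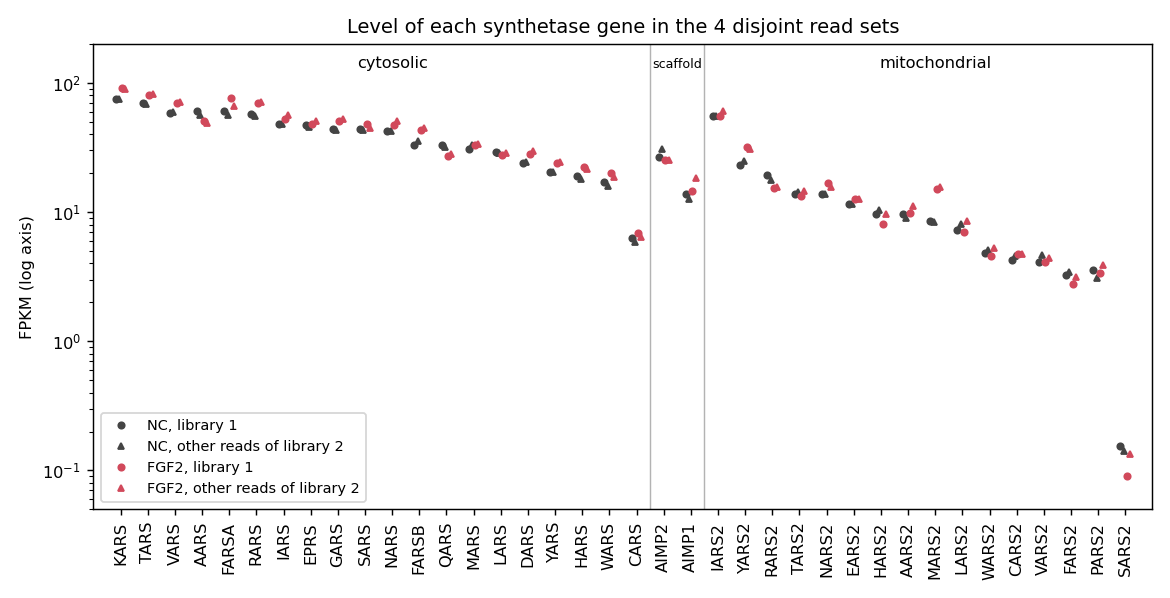
FPKM (log axis) of each of the 38 genes in the 4 disjoint read sets, NC in dark grey and FGF2 in red, with library 1 as circles and the other reads of library 2 as triangles, ordered by the NC level within the cytosolic, scaffold and mitochondrial sets. Most cytosolic genes lie between 16.6 and 75.0 FPKM in NC, CARS is lower at 6.11 FPKM, and SARS2 is at 0.147 FPKM.

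Cytosolic and mitochondrial genes for the same amino acid were set side by side in 17 pairs, with EPRS and FARS2 in 2 pairs each. The serine pair is among them, although SARS2 was under the count minimum. The cytosolic gene was the more abundant in 15 of 17 pairs in either group, with a median ratio of 3.77 in NC. The cytosolic log2 fold change was above the mitochondrial one in 10 pairs, in 9 of them in both read sets, and below it in both read sets in 4. The serine pair and both pairs with FARS2 are among the 9. The widest gap with the cytosolic gene higher was that of RARS and RARS2, with a difference of 0.56 (0.60 in the library 1 reads and 0.51 in the rest). The ratio of their levels was 3.06 in NC and 4.51 with FGF2. FARSB and FARS2 differed by 0.55, and VARS and VARS2 by 0.31. VARS2 is uncertain, since 22% of its exon sequence also belongs to a same-strand gene.

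The opposite order in both read sets was seen for methionine, alanine, tyrosine and leucine. MARS and MARS2 differed by -0.78 (-0.72 and -0.85 from the read sets), and the ratio of their levels was 3.75 in NC and 2.18 with FGF2. MARS shares 12.4% of its exon sequence with genes on the opposite strand, DDIT3 among them. AARS and AARS2 differed by -0.41 (-0.29 and -0.52). YARS and YARS2 were both past the rule and differed by -0.13 (-0.21 and -0.04). LARS and LARS2 differed by only -0.07 (-0.04 and -0.08). For asparagine, cysteine, glutamate and proline the pairs differed by at most 0.04 in either direction, and the sign depended on the read set.

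**Figure D4:**
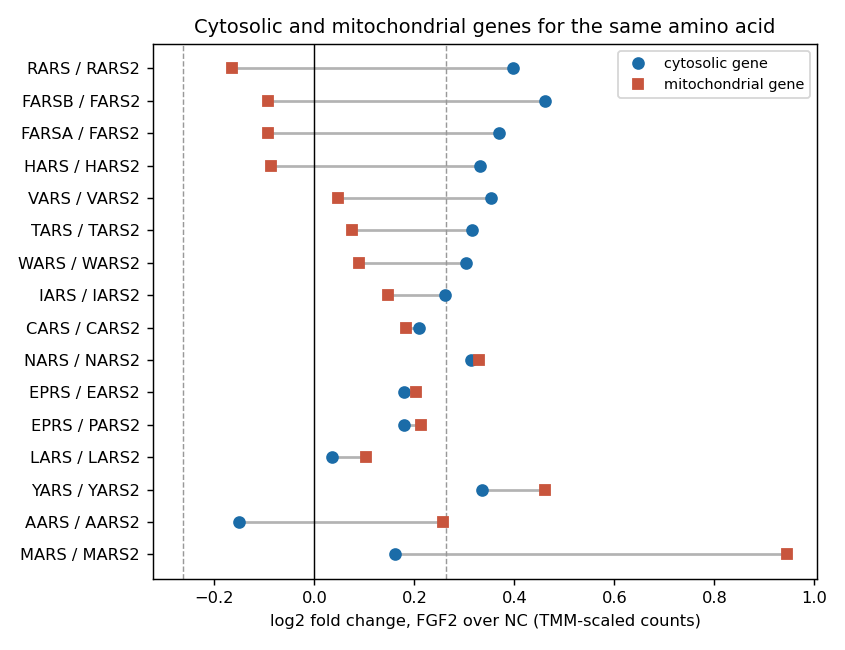
Log2 fold change (FGF2 over NC) of the cytosolic gene (circles) and the mitochondrial gene (squares) for the same amino acid, without the serine pair, whose mitochondrial gene was under the count minimum. Dashed lines mark 1.2-fold. RARS and RARS2 differ by 0.56 at the top and MARS and MARS2 by -0.78 at the bottom.

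The histidine genes HARS and HARS2 are neighbours on chromosome 5 that start back to back. The RefSeq starts have 84 bases between them, shown on the strand of HARS2, with 2 matches to the ETS site (CCGGAAGT, searched on both strands) in capitals.
HARS and HARS2, chr5:140691371-140691454, plus strand: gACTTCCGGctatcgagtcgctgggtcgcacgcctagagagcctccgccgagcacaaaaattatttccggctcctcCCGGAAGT
HARS, transcribed to the left, stood at 18.9 and 18.2 FPKM in NC and at 22.2 and 21.7 FPKM with FGF2, a log2 fold change of 0.33 (0.27 to 0.39), past the rule. HARS2, transcribed to the right, stood at 9.68 and 10.3 FPKM in NC and at 8.07 and 9.65 FPKM with FGF2 (-0.09, -0.22 to 0.04), with overlapping read sets. The difference between the genes was 0.42, with 0.50 in the library 1 reads and 0.35 in the rest. The genes share 8.38% and 11.7% of their exon sequence with genes on the opposite strand, each other among them. The ETS letters were in a window of 5 of 16 cytosolic genes (CARS, WARS, HARS, NARS and TARS). They were also in 3 of 14 mitochondrial genes (EARS2, HARS2 and PARS2), against 4.95% of all genes. Of these 8, 3 (HARS, NARS and TARS) were past the rule, beside 12.7% of all genes called higher.

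Of the 7 cytosolic genes with the amino acid response element letters, 3 were called higher and 0 lower. In the whole cytosolic set 10 of 20 were called higher, and over all genes 12.7% were called higher and 13.4% lower. GARS, TARS and NARS were past the rule at 0.34, 0.31 and 0.31. IARS, CARS and MARS stood at 0.26, 0.21 and 0.16 and AARS at -0.15, none of them past the rule. FARSB, RARS, KARS and HARS, which had a window without these letters, were past the rule at 0.46, 0.40, 0.36 and 0.33. FARSA, WARS, EPRS, SARS and QARS, also with a window without them, were not past it. VARS, YARS and DARS, which were past the rule, and LARS, which was not, had no window and could not be placed.

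Of 24 other genes of the amino acid response 21 passed the count minimum, with 4 higher (19.0%), 3 lower and a median of 0.19. The shares over all genes were 12.7% higher and 13.4% lower, so these counts lie near the background. ATF4 itself stood at 122.7 FPKM with FGF2 and 103.6 FPKM in NC (0.33, 0.28 to 0.38), and missed the rule with a smallest gap of 1.1999-fold. PPP1R15A, a phosphatase subunit that reverses the block of initiation, was higher at 0.94 (0.85 to 1.02), the kinase-like gene TRIB3 at 0.76 (0.66 to 0.87) and the glutamine transporter gene SLC1A5 at 0.62 (0.57 to 0.66). SLC1A5 shares 23.8% of its exon sequence with genes on the opposite strand. The transcription factor gene ATF3 was lower at -0.90 (-1.09 to -0.71). The other lower genes were PHGDH at -0.57 (-0.64 to -0.50) and SLC7A5 at -0.32 (-0.34 to -0.31), and the other higher one EIF2AK4 at 0.34 (0.27 to 0.41). ASNS, which makes asparagine and is a standard target of ATF4, was under the minimum, at 0.114 and 0.0329 FPKM, from 14 and 4 counts. Its level is uncertain, since 44.6% of its exon sequence also belongs to a same-strand gene.

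Of 15 partners of tRNA charging 13 passed the minimum, with 5 higher (38.5%, against 12.7% of all genes) and 0 lower (against 13.4%). Their median was 0.30, and 0.21 and 0.22 in the library 1 reads and the rest. FGF2 read sets lay entirely above the NC ones in 7 of the 13, against 37.8% of all genes. They lay entirely below in 0, against 31.2%. DTD1, a deacylase that clears tRNAs charged with D-amino acids, stood at 0.56 (0.38 to 0.75). TRNT1, which adds the CCA end to tRNAs, stood at 0.55 (0.40 to 0.70), EEF1E1, the remaining scaffold of the synthetase complex, at 0.49 (0.26 to 0.72) and the tRNA exportin gene XPOT at 0.35 (0.30 to 0.40). EEF1E1 shares 18.7% of its exon sequence with a same-strand gene, and TRNT1 shares 10.8% with a gene on the opposite strand. Mitochondria charge glutamine tRNAs through an amidotransferase in place of a synthetase. Of its subunit genes QRSL1 stood at 0.43, with 0.71 in the library 1 reads and 0.15 in the rest, and GATB and GATC at 0.01 and 0.00, with overlapping read sets.

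Counting error is all that the intervals hold. They understate the spread, as the disjoint read sets of a group gave a chi-square per gene of 2.42 (FGF2) and 2.46 (NC). Both values exceed sampling noise, so the sets differ by more than a random parting of one library would give. The source of this excess, such as pooled preparations or cultures, was not tested. Between the read sets of a group, members differed by a median of 0.06 on the log2 scale in either group.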

How the data were processed

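Each of the 4 libraries came with 1 table of 51103 genes. Per the file headers, a table gives raw read counts and FPKM, both made by the authors. Per the submitters' processing notes, HISAT2, HTSeq 0.13.5 and GRCh38 were used, with no annotation release named. All identifiers are in GENCODE v29, whose merged exon length equalled the length implied by the FPKM for 99.5% of 11923 well counted genes, so coordinates are GRCh38 from GENCODE v29. Libraries are unstranded (NEBNext Ultra kit, per the labels' protocols).

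Nothing in the labels says that libraries came from separate cultures. The planned rule counts a group as 1 sample where library 2 has the counts of a library containing library 1, as was found. TMM factors (edgeR 4.0.16, R 4.3.3) came from 15030 genes kept by filterByExpr. Fold changes are log2 ratios of library 2 counts with 0.5 added, with exact Clopper-Pearson 95% intervals. They exceed the log2 ratio of deposited FPKM by 0.09. FPKM of the other reads of library 2 were computed from count differences. Exon sharing, motif matches (Python 3.11.15) and the size rule were computed by script, and the rule and edgeR were tested on simulated data. All 38 members are accounted for, with full values for those past the rule, the extremes of each set and their pairs. For the lists of related genes, up to 4 past the rule were named by size. ATF4, ASNS, EIF2AK4, PHGDH, SLC7A5, QRSL1, GATB and GATC were added after their values were seen. Members and lists were chosen with earlier results of these data known. Alternatives were other scalings, other group values, a 1.5-fold bound, no count minimum, FPKM with 1 or 0.1 added, and edgeR and DESeq2 1.42.0 on the libraries as separate samples.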

Additional observations from a re-analysis of the deposited data

How the results depend on the processing

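The 12 members called higher were all called with DESeq2 size factors (12). Library 1 alone gave 15, the other reads alone 18 and the mean of both libraries 16, with 0 lower in each. These looser rules hold the 12 by construction, and the share of all genes called higher grew with them from 12.7% to 22.9%, 22.9% and 21.3%. The share of all genes called lower grew from 13.4% to 21.4%, 22.9% and 20.9%. No count minimum left 12, and the 31 members sharing under 10% of exon sequence, an alternative chosen after seeing the data, held all 12. Scaling by total counts gave 4 and the 1.5-fold bound 1, with 0 lower in each. Over all genes these settings called 8.47% and 3.14% higher, and 17.6% and 5.17% lower.

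With the libraries treated as separate samples, at an adjusted p under 0.05, edgeR's quasi-likelihood test gave 25 members higher and 3 lower, the same with a replicate block gave 25 and 3 (the libraries share only numbers, with a correlation of same-numbered deviations of -0.0122), and DESeq2 gave 24 and 2. On the disjoint read sets edgeR gave 21 higher and 0 lower. Over all 15030 genes edgeR called 4679 higher and 4697 lower on the libraries and 2519 and 2215 on the read sets. With the replicate block edgeR called 4685 higher and 4688 lower over all genes, and DESeq2 called 3223 and 2812. These libraries share reads, so the calls compare libraries and not conditions.

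The cytosolic median of 0.31 became 0.23 with scaling by total counts, 0.22 on log2(FPKM + 1) and 0.23 on log2(FPKM + 0.1), and ranged from 0.298 to 0.325 in the others. The mitochondrial median of 0.15 became 0.0599 with total counts, 0.0589 on log2(FPKM + 1) and 0.0598 on log2(FPKM + 0.1), none of which use TMM. It was 0.0825 on library 1 and 0.141 on the reads outside it. The difference of the medians, 0.17, was 0.216 on library 1 and 0.183 on the other reads. LARS, TARS2 and VARS2 stood below 0 with scaling by total counts. Among members past the minimum, depth limits PARS2, FARS2 and WARS2 most, at 213 to 523 counts per library 2.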
